A study of Mus musculus with 9 samples.

Results

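The Fos, Jun and Egr families are the transcription factor genes that cells switch on first after a growth signal or a stress. The 10 members Fos, Fosb, Fosl1, Fosl2, Jun, Junb, Jund, Egr1, Egr2 and Egr3 were followed across 3 lines of mouse embryonic fibroblasts (MEFs) that differ in Oga. Members were found by their gene symbols in the platform annotation, which gave 16 probe sets of the 45037 on the array that are not controls, and all 10 members of 18193 named genes had at least 1. Oga encodes O-GlcNAcase, the enzyme that takes the sugar O-linked N-acetylglucosamine off proteins, and the comparisons ask how expression differs when 1 or both copies of it are lost.

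Such lines are grown out of dissociated embryos, here female ones at D12.5, and were kept in DMEM. Males with a floxed Oga allele (genetic background given as C57B1/6) had been bred to MMTV-cre females (B6129-Tgn(MMTV-Cre)1Mam), and Oga +/- offspring were then intercrossed. The WT line carried both working copies of Oga, the Het line 1 and the KO line 0. The MMTV promoter drives Cre mainly in mammary and other secretory epithelium. The sources used here do not say whether the lines still carry the Cre transgene. Each line has its own embryo code in the titles, so a genotype is 1 line, and the design text calls the 3 arrays of a line technical replicates. Every p-value below therefore measures the spread between arrays of a line, and genotype cannot be told apart from any other difference between these lines. The labels name no serum withdrawal or stimulation before the RNA was taken, and they do not give the growth state of the cultures.

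Immediate early genes are transcribed within minutes of a signal because the factors that switch them on are already present in the cell. Kinases of the ERK, JNK and p38 pathways act on serum response factor (SRF) and its partners, which bind the CArG box, and on CREB, which binds the CRE with the letters TGACGTCA. Fos proteins pair with Jun proteins to form AP-1, which binds TGANTCA, whereas Egr proteins are zinc finger factors that bind GCGNGGGCG. Their products then switch on a later set of genes for growth, matrix turnover and repair, and fibroblasts given serum are a classical system for this response.

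The values are the authors' deposited log2 values, so a difference of 1 is 2-fold. A gene was called, and is said to have risen or fallen, when limma gave an adjusted p below 0.05 together with a difference of at least 2-fold. This was tested over 12962 genes, each read by its most abundant probe set above a low-value limit of 6.22. All probe sets, low ones included, were also tested together, and the other probe sets of a member carry the adjusted p of that fit. In the first fit 3.56% of genes were called between KO and WT, 0.255% in the Het to WT comparison, and 2.0% in that of KO with Het. The adjusted p threshold alone was passed by 53.1%, 34.4% and 52.3% of genes in the same order, so passing it is common here. Of the 10 members 9 entered this fit, and Fosb lay below the limit.

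Oga itself followed the labels. Its most abundant probe set averaged 11.92 over the WT arrays, 11.16 over the Het arrays and 6.06 over the KO arrays. The fibroblast collagen gene Col1a1 had line means of 14.95, 14.89 and 14.87 in the order WT, Het, KO. Of 10 fibroblast markers Pdgfra (log2 difference from WT -2.55) and Lum (-2.42) fell in the KO line and 8 were not called. Lum (-1.18) also fell in the Het line. By adjusted p alone 1 of the 10 was higher in KO than in WT, 5 lower and 4 did not pass. The summed level of the 10 was 17.40 to 17.41 in WT, 17.35 in Het and 17.26 to 17.31 in KO arrays. All 13 macrophage and blood markers measured fell in the KO line. Their summed level was 15.73 to 15.77 in WT, 15.41 to 15.49 in Het and 13.90 to 13.99 in KO arrays on the log2 scale, and none of the 13 lay below the low-value limit. Of 8 skeletal muscle markers 6 rose in the KO line, with summed levels of 10.93 to 10.97 in WT, 11.48 to 11.63 in Het and 12.23 to 12.24 in KO arrays. Myog (0.99) and Tnnt1 (-0.04) were not called, and Myod1 lay below the low-value limit. Of 5 epithelial markers Krt18 and Krt19 rose and 3 were not called, and the 1 endothelial marker measured, Kdr, differed by 0.02. Of 4 neural markers Nes rose and 3 were not called, but by adjusted p all 4 were higher than in WT in both KO and Het. The summed level of these 4 was 11.22 to 11.31 in WT, 11.91 to 11.98 in Het and 12.30 to 12.37 in KO arrays. The actin 3' minus 5' difference, a sign of RNA quality, was 0.060 to 0.082 in WT, 0.093 to 0.12 in Het and 0.052 to 0.087 in KO arrays. That of GAPDH was -0.088 to -0.069 in WT, -0.0077 to 0.0041 in Het and -0.099 to -0.036 in KO arrays, so the Het arrays lay above the others in both. Of 12 heat shock genes, taken as a sign of handling stress, Hspa1b (1.37) and Cryab (1.10) rose and 10 were not called, against 3.56% of all genes called. By adjusted p alone 8 of the 12 were higher in KO than in WT, 0 lower and 4 did not pass. The summed level of the 12 was 16.04 to 16.07 in WT, 16.00 to 16.04 in Het and 16.26 to 16.28 in KO arrays. The part of these shifts in the values of the members was not tested, and fewer cells of a type cannot be told apart from less RNA per cell.

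Egr2 rose in the KO line, and it was the only one of the 9 members tested that was called in any comparison. Egr2 encodes a zinc finger factor that is known for its role in hindbrain patterning and in Schwann cell myelination, and that serum induces in fibroblasts. At its most abundant probe set (1427683_at) the WT arrays read 8.23, 8.21 and 8.28, the Het arrays 8.32, 8.26 and 8.36, and the KO arrays 9.36, 9.30 and 9.42. The 3 KO arrays lay above all others, and the WT and Het arrays overlapped. KO was 2.17-fold above WT (log2 difference 1.12 ± 0.044, standard error with n = 3 arrays in each line, limma adjusted p = 4.2e-09) and 2.07-fold above Het (1.05 ± 0.044, adjusted p = 1.4e-08). Het and WT differed by 0.07 (95% confidence interval -0.024 to 0.17, adjusted p = 0.226).

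The second Egr2 probe set (1427682_a_at) gave the same order of lines. It read 6.92, 7.10 and 7.08 in WT, 7.22, 7.12 and 7.06 in Het, and 8.17, 8.26 and 8.27 in KO arrays. The KO line was higher than WT by 1.20 ± 0.066 (limma adjusted p over all probe sets = 3.1e-07) and higher than Het by 1.10 ± 0.066 (1.1e-06). Both probe sets thus placed the Het line with WT and the KO line about a doubling above. The Egr2 call against WT was made under all 18 alternative settings, at 1.09 to 1.16, and that against Het likewise, at 1.02 to 1.10.

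The stretch before a gene's start holds the short sites that the upstream factors read, and is shown here for the members whose windows hold a rarer match. RefSeq promoter windows (GRCm38.p6) matched 7 of the 10 members by symbol, with 11 windows, and the 250 bases before each start were searched on both strands. Egr1, Egr3 and Fosl1 had no window, so their promoters were not searched. A CArG box was found in 4 of the 11 windows, all of them windows of Egr2, against 1.47% of 32851 windows of the same length. Sites further than 250 bases before a start were not searched, so these counts do not show that other members lack a CArG box. Windows of neighbouring Egr2 starts overlap and share the second box below, so 4 of 11 is not a share of genes. Each sequence below has 30 bases on the strand of the gene, with the match in capitals:
Egr2 CArG box, chr10:67537484-67537513, + strand: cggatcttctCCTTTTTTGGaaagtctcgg
Egr2 CArG box, chr10:67537787-67537816, + strand: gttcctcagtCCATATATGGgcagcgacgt
Fosb EGR site, chr7:19310076-19310105, - strand: tgacgcaagcGCGGGGGCGggtcccggagg
Fosl2 EGR site, chr5:32136383-32136412, + strand: ccggctgcgcGCGGGGGCGgaagggcgcgc
Fos TATA box, chr12:85473845-85473874, + strand: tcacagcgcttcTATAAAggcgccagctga
The first CArG box lies 72 to 63 bases before 1 annotated start of Egr2, and the other lies the same distance before a start further along the gene and within the windows of neighbouring starts. The EGR site GCGNGGGCG was found in 2 windows, those of Fosb and Fosl2, against 4.7% of all windows, and TATAAA in that of Fos, against 12.4%. The CRE letters TGACGTCA and the AP-1 letters TGANTCA matched 0 of the 11 windows, against 1.55% and 6.75% of all. The CCAAT box matched 5 windows, of Egr2, Jun and Junb, against 33.8% of all. None of the matches printed overlapped another of the motifs searched. A match describes these letters only and does not show that a factor binds there.

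Egr1, the most studied member of the family and the one usually induced with Fos, did not follow Egr2. Its single probe set read 12.65, 12.60 and 12.65 in WT, 12.46, 12.52 and 12.51 in Het, and 12.62, 12.62 and 12.63 in KO arrays. The KO arrays lay within the range of WT, and the difference was -0.0084 with a 95% confidence interval of -0.089 to 0.072 (limma adjusted p = 0.862). The Het arrays lay below both other lines, by 0.14 from WT (-0.14 ± 0.037, adjusted p = 0.0149), which is 1.10-fold. With all probe sets in the fit this difference had an adjusted p of 0.0519, and in the gene fit it did not pass without WT replicate 1 or without WT replicate 3. KO was above Het by 0.13 ± 0.037 (adjusted p = 0.0128), which did not pass with quantile normalization or with all probe sets in the fit (0.0562).

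Egr3, an induced relative that acts in muscle spindles and lymphocytes, read lower on every KO array than on any WT array at both of its probe sets, by less than 2-fold and past the adjusted p in the fit over all probe sets at 1 of them. The more abundant probe set (1421486_at) read 8.01, 8.02 and 8.02 in WT, 8.05, 8.12 and 8.00 in Het, and 7.80, 7.97 and 7.81 in KO arrays. The KO minus WT difference was -0.16 ± 0.052 (limma adjusted p = 0.0258), and with all probe sets in the fit its adjusted p was 0.0703, which does not pass. In 6 of 18 alternative settings of the gene fit it did not pass either: quantile normalization, and leaving out WT replicate 1, 2 or 3 or KO replicate 1 or 3. The other probe set (1436329_at) read 8.00, 7.64 and 7.94 in WT, 7.85, 7.82 and 7.82 in Het, and 7.57, 7.56 and 7.38 in KO arrays. There the difference was -0.36 ± 0.088 (adjusted p over all probe sets = 0.0113), and the mean of both probe sets gave -0.26. Within the Egr family the KO arrays thus lay above the WT arrays for Egr2, below them for Egr3, and within their range for Egr1.

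**Figure D1:**
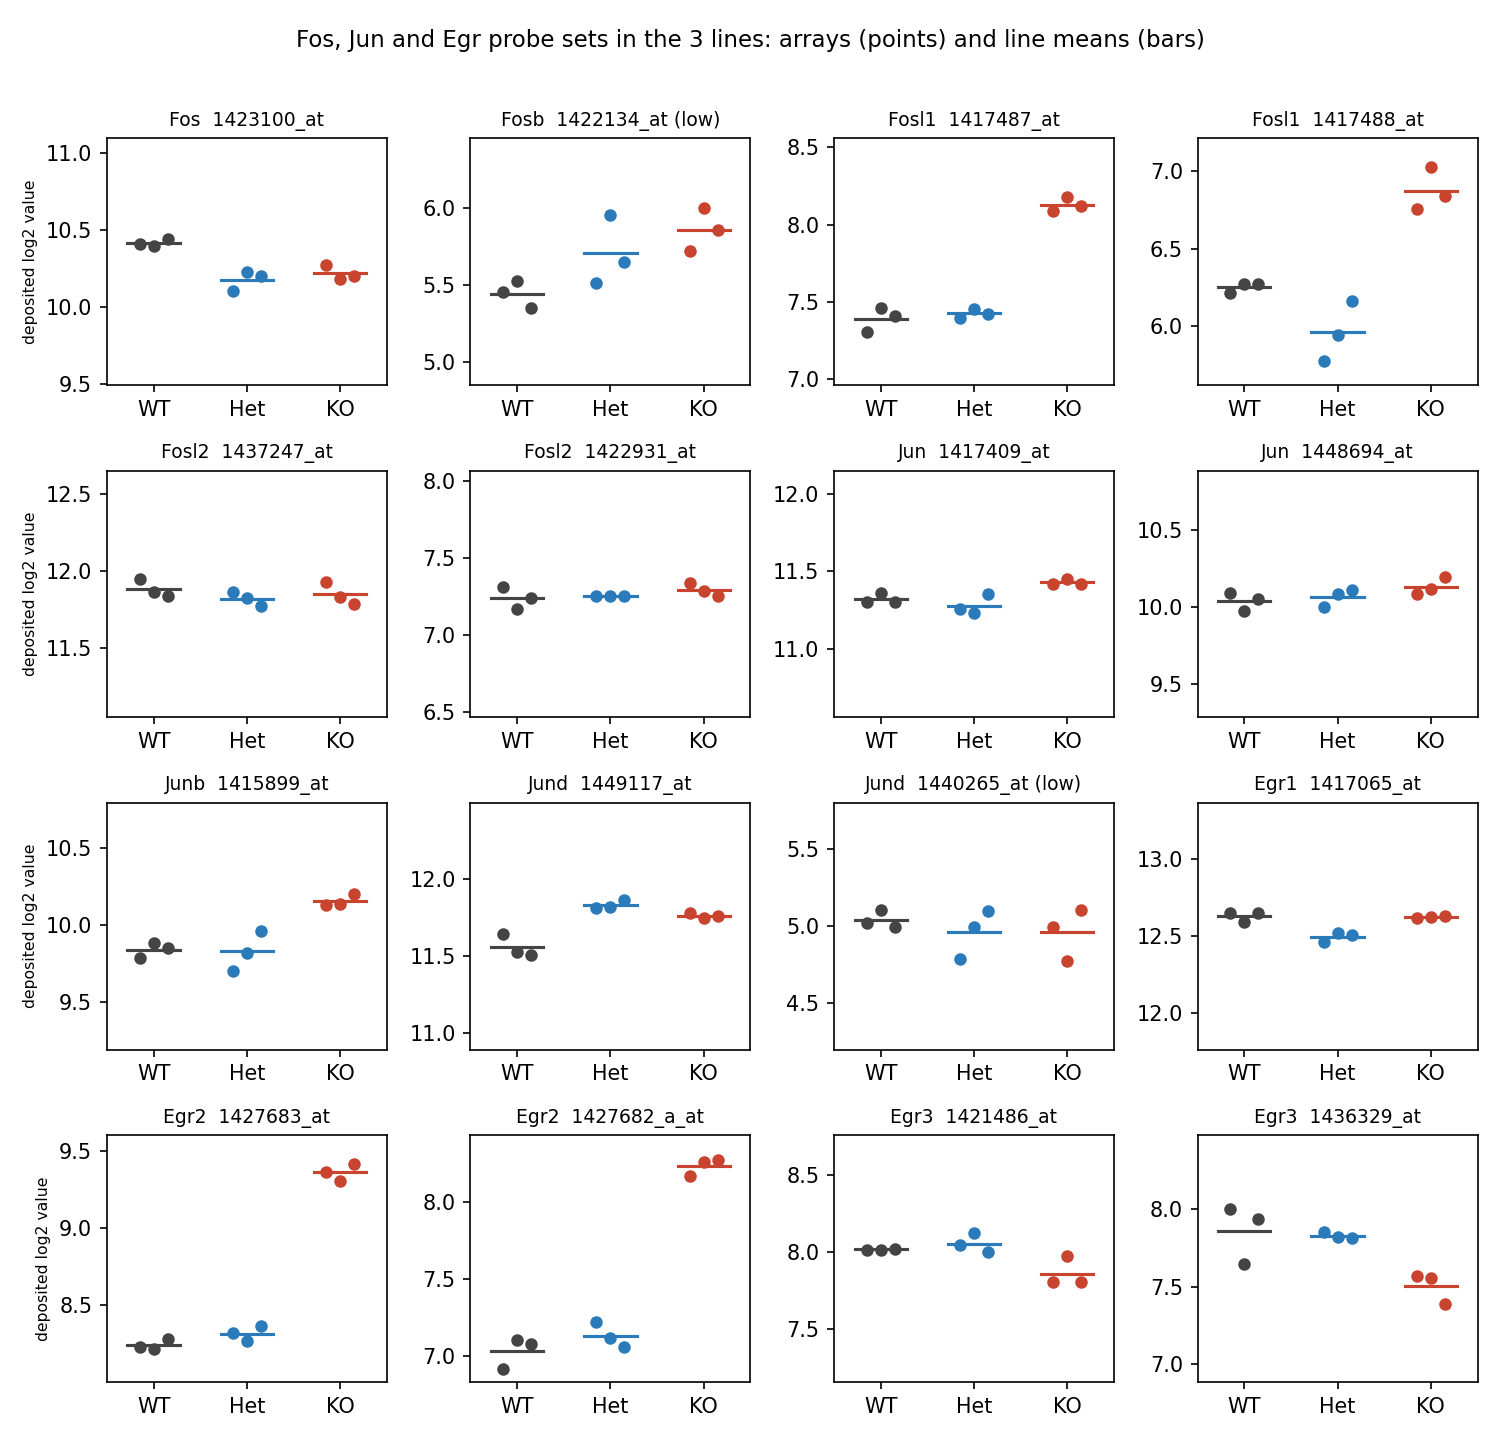
Deposited log2 values (y axis, a span of 1.6 in every panel) of the 16 probe sets of the 10 members in the WT, Het and KO lines (x axis). Points are the 3 arrays of a line and bars their mean, and (low) marks probe sets with a mean below 6.22. The KO arrays stand above the others at both Egr2 probe sets and both Fosl1 probe sets, and by less at Junb and at Jun 1417409_at.

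Fosl1 had the largest difference among the Fos members. It encodes Fra-1, an AP-1 subunit without the strong activation domain of Fos, which accumulates later than Fos in growing and migrating cells. At probe set 1417487_at the WT arrays read 7.31, 7.46 and 7.41, the Het arrays 7.40, 7.46 and 7.42, and the KO arrays 8.09, 8.18 and 8.12. All KO arrays lay above all others, while WT and Het overlapped. KO was 1.67-fold above WT (0.74 ± 0.047, limma adjusted p = 2.1e-07) and 1.63-fold above Het (0.71 ± 0.047, adjusted p = 4.8e-07), which is short of 2-fold.

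At the other Fosl1 probe set (1417488_at) the WT arrays read 6.21, 6.27 and 6.27, the Het arrays 5.77, 5.94 and 6.16, and the KO arrays 6.76, 7.03 and 6.84. The KO line was again the highest, by 0.62 ± 0.097 over WT (adjusted p over all probe sets = 6.8e-04) and 0.92 ± 0.097 over Het (6.2e-05). Here the Het arrays lay below the WT arrays, by 0.30 (-0.30 ± 0.097, adjusted p = 0.0542). All 3 Het arrays and 1 WT array lie below the low-value limit of 6.22 here, so the sizes of these differences and the order of WT and Het hold for the deposited values only. Both probe sets placed KO above the other lines.

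Fos, the founding member and the partner of Jun in AP-1, was slightly lower in both other lines than in WT. Its probe set read 10.41, 10.39 and 10.44 in WT, 10.10, 10.23 and 10.20 in Het, and 10.27, 10.18 and 10.20 in KO arrays. Het and KO arrays overlapped each other and lay below every WT array. The difference from WT was -0.24 ± 0.044 in Het (1.18-fold, limma adjusted p = 0.00207) and -0.19 ± 0.044 in KO (1.14-fold, adjusted p = 0.00339). Both comparisons use the same WT arrays. The KO line differed from Het by 0.04 (95% confidence interval -0.054 to 0.14).

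Fosl2, which encodes Fra-2, another AP-1 subunit without the activation domain of Fos, did not differ beyond the spread of arrays. Its more abundant probe set read 11.95, 11.87 and 11.84 in WT, 11.86, 11.83 and 11.78 in Het, and 11.93, 11.84 and 11.79 in KO arrays. The 3 lines overlapped. The KO minus WT difference was -0.03 (95% confidence interval -0.14 to 0.074), and the second probe set gave 0.05 ± 0.051. Fosb, whose product resembles Fos and is known for its long-lived splice form in neurons, was low in all lines. Its probe set read 5.46, 5.53 and 5.35 in WT, 5.52, 5.95 and 5.65 in Het, and 5.72, 6.00 and 5.86 in KO arrays. These values lie below the limit of 6.22, so the higher KO value (0.41 ± 0.11, adjusted p over all probe sets = 0.0154) holds for the deposited values only.

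Among the Jun members, which can pair with Fos proteins or with each other, Junb was higher in the KO line. Junb often opposes Jun in growing cells and is itself induced early. It read 9.79, 9.88 and 9.85 in WT, 9.70, 9.82 and 9.96 in Het, and 10.13, 10.14 and 10.20 in KO arrays. KO arrays lay above all others, and the Het arrays spread widely around the WT values. KO was 1.24-fold above WT (0.32 ± 0.061, limma adjusted p = 0.00112) and 1.25-fold above Het (0.33 ± 0.061, adjusted p = 9.7e-04).

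Jund, the member of the family that resting cells express steadily, was higher in both Het and KO. At its abundant probe set (1449117_at) the WT arrays read 11.64, 11.52 and 11.51, the Het arrays 11.81, 11.81 and 11.86, and the KO arrays 11.78, 11.75 and 11.76. The order was WT, KO, Het with no overlap. Het was above WT by 0.27 ± 0.043 (1.21-fold, limma adjusted p = 8.4e-04) and KO by 0.20 ± 0.043 (1.15-fold, adjusted p = 0.00221), whereas KO and Het differed by -0.07 (95% confidence interval -0.16 to 0.029). A second Jund probe set (1440265_at) had line means of 5.04, 4.96 and 4.96 in WT, Het and KO, below the limit, and its arrays overlapped.

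Jun, the main partner of Fos, had the smallest KO minus WT difference of the Jun members. Its probe set 1417409_at read 11.30, 11.36 and 11.30 in WT, 11.25, 11.23 and 11.35 in Het, and 11.42, 11.45 and 11.42 in KO arrays. KO arrays were the highest, by 0.11 ± 0.043 over WT (1.08-fold, limma adjusted p = 0.0508) and 0.15 ± 0.043 over Het (1.11-fold, adjusted p = 0.0116). In 6 of 18 alternative settings the difference from WT passed the adjusted p threshold, and that from Het did not pass with quantile normalization or without Het replicate 2. At 1448694_at the 3 lines overlapped, with a KO minus WT difference of 0.09 ± 0.055.

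**Figure D2:**
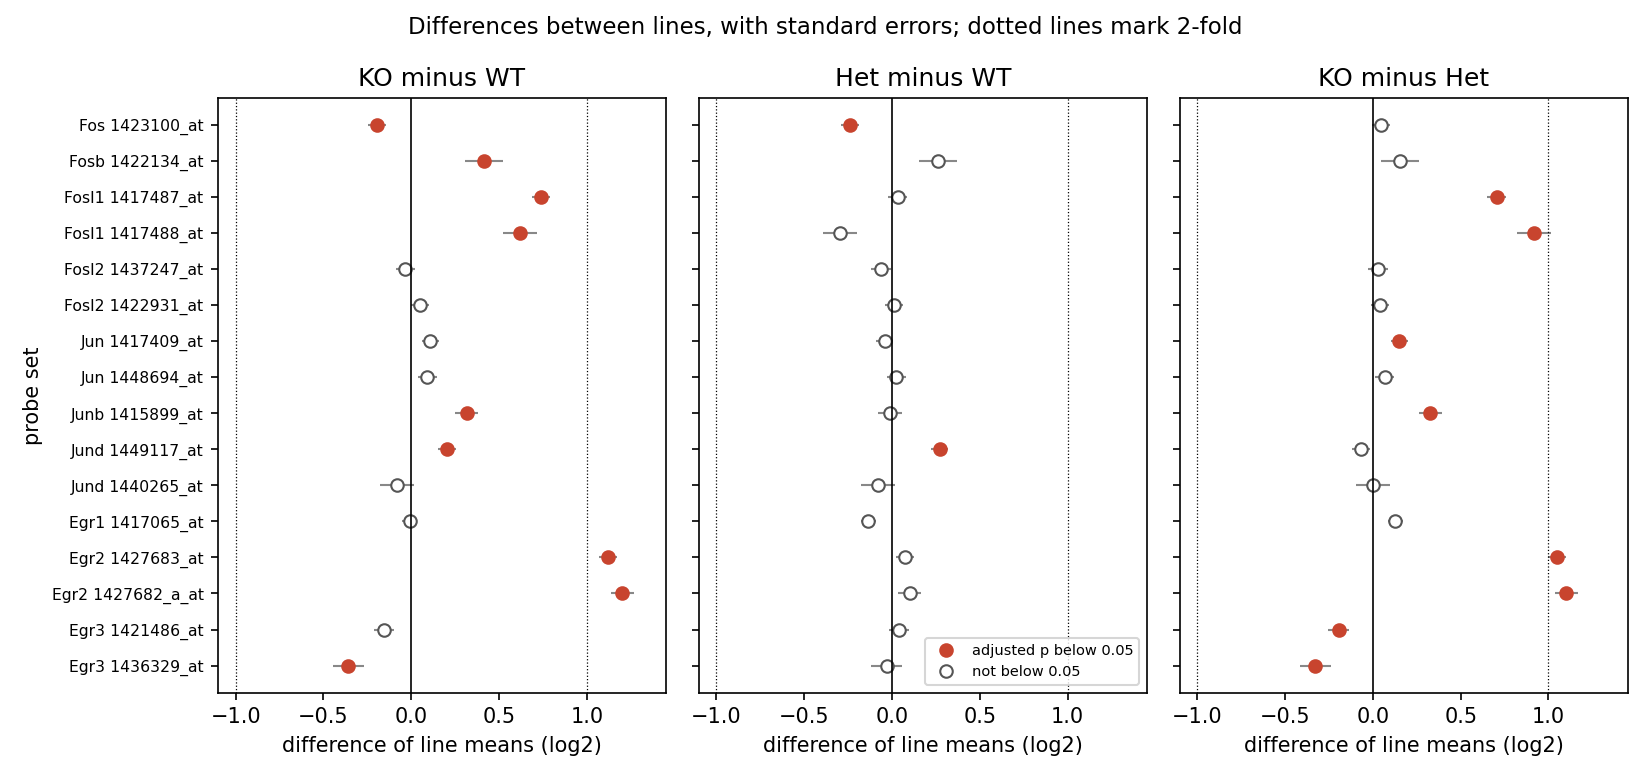
Difference of line means on the log2 scale (x axis) for each of the 16 probe sets (y axis) in the 3 comparisons, with standard errors from the fit over all probe sets. Filled points passed an adjusted p of 0.05 and dotted lines mark 2-fold. The 2 Egr2 probe sets are the only points past 2-fold, in KO minus WT and in KO minus Het.

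Counted over the families, 1 of 9 members tested rose in the KO line, 0 fell and 8 were not called, against 3.56% of all genes called. By adjusted p alone 4 members were higher, 2 lower and 3 did not pass, a share near the 53.1% of all genes. The median difference of the 9 members was 0.11, beside -0.029 over all genes. For Het against WT limma called 0 of 9, against 0.255% of all genes, with a median of -0.011 beside -0.012 over all genes. There 3 members had an unadjusted p below 0.05. All 3 passed after adjustment (Jund higher, Fos and Egr1 lower), as did 34.4% of all genes. Between KO and Het 1 rose, 0 fell and 8 were not called, against 2.0% of all genes called (median 0.13, beside -0.021 over all genes). Over the 16 probe sets, 9 passed the adjusted p for KO against WT (28.9% of all probe sets), 2 for Het against WT (21.0%) and 8 for KO against Het (26.6%). These shares include many low probe sets, whereas 14 of the 16 member probe sets were past the low-value limit, so they are not a like background, and the 53.1% of filtered genes is nearer to one for KO against WT. The count for KO against Het was 5 without Het replicate 1, without Het replicate 2 or without KO replicate 3. For Het against WT the count was 4 with median centring, with a trended and robust variance or with the replicate number as a block.

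Among all genes Egr2 and Fosl1 stood near the upper end by size of difference, and the rest did not. Between KO and WT 2.74% of genes had a larger difference than Egr2 and 6.43% a larger one than Fosl1. For Junb this share was 24.1%, for Jund 39.1%, for Fos 41.2%, for Egr3 48.4%, for Jun 60.7%, for Fosl2 86.2% and for Egr1 96.6%. Between Het and WT the highest placed members were Jund (12.4%) and Fos (16.6%), while Egr2 stood at 63.0%. Between KO and Het, Egr2 stood at 1.69% and Fosl1 at 4.54%.

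**Figure D3:**
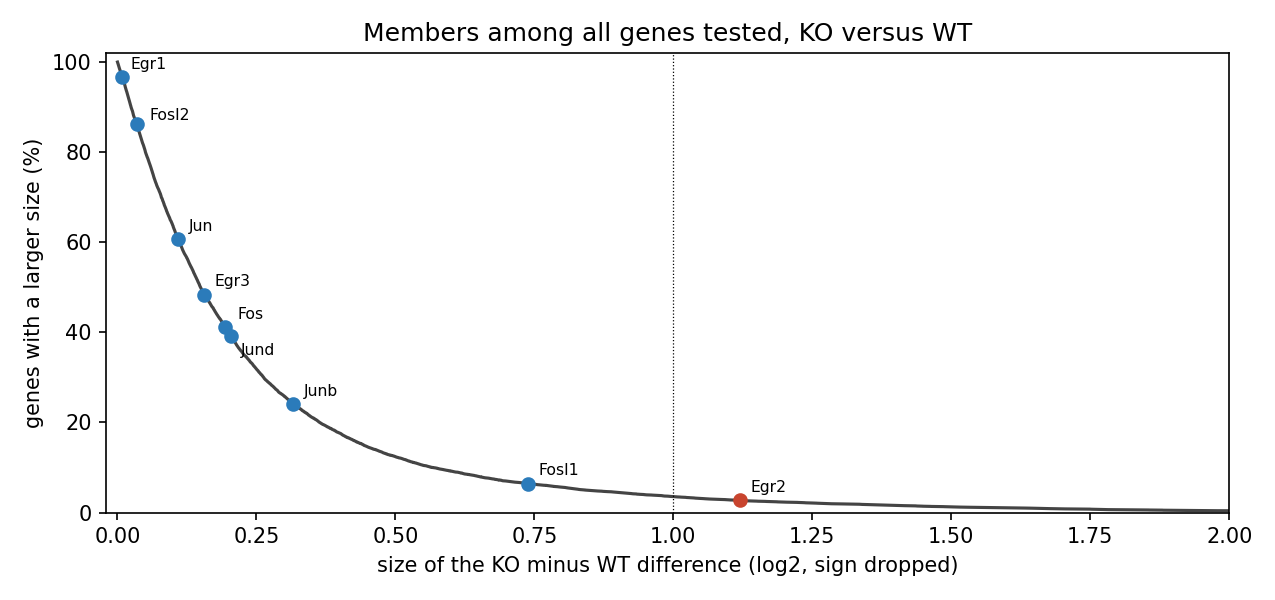
Share of the 12962 genes with a larger KO minus WT difference (y axis, percent) against the size of the difference without its sign (x axis, log2). The curve is over all genes, points are the 9 members tested, the red point is called and the dotted line marks 2-fold. Egr2 lies at 2.74%, Fosl1 at 6.43% and Egr1 at 96.6%.

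The members did not shift together from array to array within a line. On each of the 9 arrays between 2 and 6 of the 9 members lay above their line mean, and the median deviation was between -0.026 and 0.022. The largest single deviation was 0.13, for Junb on Het replicate 3. In the comparison of KO with WT the differences of Egr2, Fosl1, Junb, Jund, Fos and Egr3 were larger than this in size, and those of Egr1, Jun and Fosl2 were not. That deviation belongs to Junb on a single Het array, so it does not measure the spread of the other members. At Jun 1417409_at, for example, all KO arrays lay above all WT arrays.

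The genes whose line pattern was closest to that of Egr2, by the summed distance of the Het minus WT and KO minus WT differences, were Hipk2, a kinase of the DNA damage response, Fbxo32, a ubiquitin ligase subunit of muscle wasting, Cemip, which takes part in hyaluronan breakdown, Tuft1 and Rgs4, a regulator of G protein signalling. Their KO minus WT differences were 1.12 for Hipk2, 1.09 for Fbxo32, 1.06 for Cemip, 1.13 for Tuft1 and 1.12 for Rgs4, and the summed distances ran from 0.021 to 0.087 over the 3 line means. With the mean of all probe sets of a gene, Hipk2 (0.82), Cemip (0.84) and Rgs4 (0.95) were under 2-fold.

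Of 31 other immediate early genes measured, 3 rose in the KO line, 0 fell and 28 were not called, against 3.56% of all genes. These were Ptgs2, the inducible cyclooxygenase (1.88 ± 0.082, limma adjusted p = 8.4e-09), Dusp1, a phosphatase that switches MAP kinases off (1.44 ± 0.059, 6.0e-09), and Btg2, a growth inhibitor that p53 also induces (1.34 ± 0.065, 2.0e-08). By adjusted p alone 19 were higher, 4 lower and 8 did not pass. The list median was 0.25, beside 0.11 for the 9 members and -0.029 for all genes. The same 3 genes were the ones called between KO and Het. Between Het and WT limma called 0 of 31, with 19 at an unadjusted p below 0.05, and the median was 0.035. By adjusted p 8 of the 31 were higher in Het, 6 lower and 17 did not pass, where 34.4% of all genes passed.

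Of 12 AP-1 partners and relatives 1 fell in the KO line, 0 rose and 11 were not called (median -0.11), against 3.56% of all genes called. By adjusted p alone 3 of the 12 were higher, 5 lower and 4 did not pass. The gene that fell was Maf, a large Maf factor that macrophages also express (-1.53 ± 0.063, limma adjusted p = 5.7e-09), and it was lower in Het as well (-0.62). The macrophage markers had a median of -1.77 in KO and -0.35 in Het against WT, and their part in the Maf difference was not tested.

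Among 12 upstream transcription factors measured 1 rose in the KO line, against 3.56% of all genes called, and the list median was 0.076. Myocd, the SRF cofactor of smooth and heart muscle, read 5.96 in WT, below the low-value limit, 6.63 in Het and 7.61 in KO (1.65 ± 0.093, limma adjusted p = 7.0e-08), and the 8 skeletal muscle markers measured had a median of 1.40. Their part in the Myocd difference was not tested. Srf itself had means of 9.65, 9.91 and 10.14 in the order WT, Het, KO. Its KO minus WT difference of 0.49 (limma adjusted p = 7.1e-06) is short of 2-fold. Srf was picked out after its values were seen, since SRF is known to bind CArG boxes. By adjusted p alone 6 of the 12 were higher, 3 lower and 3 did not pass. The part of Srf in the Egr2 difference was not tested.

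Kinases of the ERK, JNK, p38 and RSK pathways gave no call. Of 20 listed, 11 were measured, and limma called 0 between KO and WT, against 3.56% of all genes. An unadjusted p below 0.05 was found for 7 of the 11. By adjusted p 3 were higher, 3 lower and 5 did not pass, where 53.1% of all genes passed. The members with the largest KO minus WT differences were Map2k6, a p38 activator (-0.53), and Rps6ka3, which encodes RSK2 (-0.45, or -0.25 when its probe sets were averaged). The list median was -0.050 in KO and -0.17 in Het against WT.

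EGR corepressors and known EGR targets included 1 gene that rose in the KO line among 10 measured (median 0.14), against 3.56% of all genes called. By adjusted p alone 4 of the 10 were higher, 2 lower and 4 did not pass. Known AP-1 targets included 3 that rose and 1 that fell among 13 (median 0.27), against the same 3.56%. By adjusted p alone 8 of the 13 were higher, 4 lower and 1 did not pass, where 53.1% of all genes passed. Hbegf, a ligand of the EGF receptor, rose most (1.95 ± 0.041, limma adjusted p = 4.9e-11). Cd44, the hyaluronan receptor, which is on both lists, rose by 1.06 ± 0.053 (2.9e-08), and the gelatinase gene Mmp9 by 1.03 ± 0.070 (3.5e-07). The stromelysin gene Mmp3 fell by 1.23 to a KO mean of 6.21, just under the low-value limit. With the mean of probe sets Cd44 (0.996) and Mmp9 (0.998) were within 2-fold, and so was Mmp9 without WT replicate 1 (0.95). Between Het and WT limma called 0 of the 10 and 0 of the 13, with 6 and 10 at an unadjusted p below 0.05. By adjusted p 3 of the 10 were higher in Het, 3 lower and 4 did not pass. Of the 13, 8 were higher, 2 lower and 3 did not pass, where 34.4% of all genes passed.

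**Figure D4:**
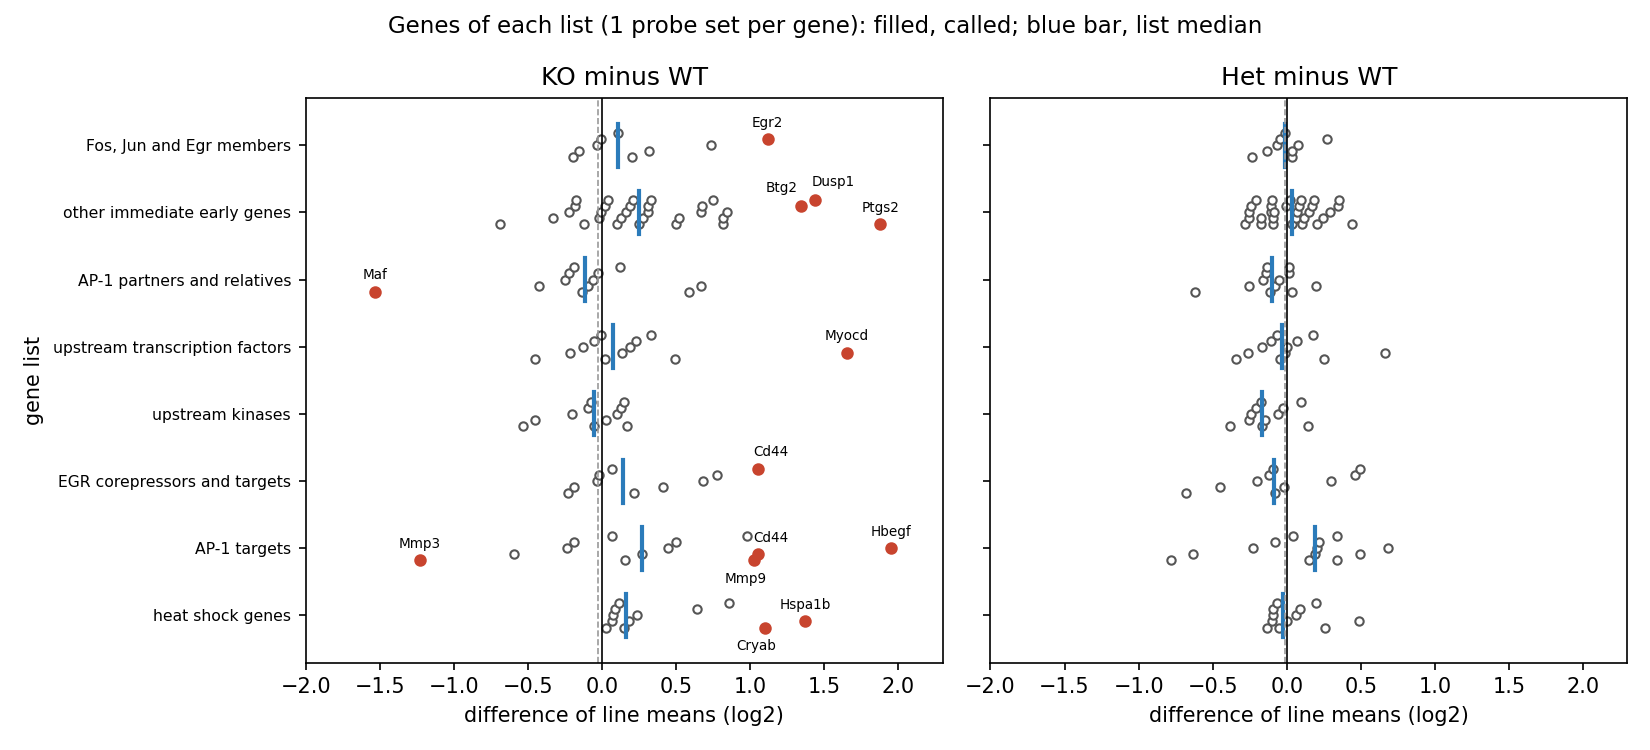
Difference of line means on the log2 scale (x axis) for the genes of each list (y axis), KO minus WT on the left and Het minus WT on the right, both against the same WT arrays. Each circle is a gene, filled and named where it was called, blue bars are list medians and the dashed line is the median of all genes. The median of other immediate early genes is 0.25 on the left and 0.035 on the right.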

How the data were processed

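The authors deposited log2 values for 45101 probe sets on 9 arrays, per the file and the labels; the base was taken from the values. GCOS and Partek are named in the submitters' processing notes, and background correction, normalization and summarization are not given in the sources used here. The values were used without further normalization. The 64 control probe sets were left out, and so were the lowest 40% by mean over all arrays for the gene fit. The probe set with the highest mean stood for a gene. Probe sets with 1 symbol (34945) were named, and older names of list genes were matched through RefSeq synonyms (GRCm38.p6). Lines were compared with limma 3.58.1 (lmFit, eBayes) in R 4.3.3, in a model of 3 lines over all 9 arrays, with Benjamini-Hochberg adjustment over all genes or all probe sets. The steps were tested on simulated data. Members and lists were chosen with earlier results of these data known. Genes named from lists were the called ones, at most 6 by size, or the 2 with the largest difference where none was called; Srf and the markers named lie outside that rule. The genes most like a member were sought for the 3 members with the widest range of line means and are given for Egr2. Of list genes, 7 kinases and others without a probe set of 1 symbol were not analysed here. Array number limits the precision; array correlations were 0.997 to 0.999 within lines and 0.989 to 0.996 between lines. Plots used matplotlib 3.10.9 (Python 3.11.15).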

Additional observations from a re-analysis of the deposited data

How the results depend on the processing

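With a 1.5-fold minimum, 2 members were called between KO and WT and 2 between KO and Het, Fosl1 (0.74 and 0.71) joining Egr2; under the other alternatives run the counts of called members were 1, 0 and 1 as in the report. Leaving out 1 array at a time gave 5 to 8 member probe sets past the adjusted p for KO against Het, 2 to 3 for Het against WT and 7 to 9 for KO against WT. These probe set alternatives were chosen after seeing the data. The count for Het against WT was 4 with median centring, 4 with a trended and robust variance and 4 with the replicate block. Among members, signs turned only for differences that had not passed the adjusted p, and the cause was not tested. Egr1 (KO versus WT) was 0.0070 with median centring and -0.027 to 0.0018 over left-out arrays. Fosl2 was 0.0090 with the mean of probe sets (KO versus WT), -0.038 with quantile normalization (KO versus Het) and -0.0098 to 0.061 over left-out arrays in the latter. Fosl1 (Het versus WT) was -0.0015 with quantile normalization, -0.0039 with median centring, -0.13 with the mean of probe sets and -0.0099 to 0.068 over left-out arrays. Junb (Het versus WT) was 0.033 with quantile normalization and -0.078 to 0.053 over left-out arrays. List counts stayed within 1.5 times in 170 of 189 comparisons, and 13 of the 19 others came from the 1.5-fold minimum. With the stricter filter Fosl1 and Myocd fell out of the test, so neither has a value there.

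Deviations of same-numbered arrays had r from -0.18 to 0.21, within the range of differently numbered arrays (-0.25 to 0.22). Of 9 arrays 4 correlated best with their own number. This gave no sign that the numbers pair the arrays, but with 3 arrays in a line the check is weak. A batch shared by number was not tested. With the replicate block the Egr2 difference of 1.12 had an adjusted p of 4.9e-08, and the count of called members was again 1 for KO against WT, 0 for Het against WT and 1 for KO against Het.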
